A study of Rattus norvegicus with 15 samples.

Results

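Regions of intermediate probe length are stretches of the rat genome in which the probes of an array have an intermediate mean length. Most of them carry short and long probes side by side. A region here is a run of at least 3 probes with gaps of at most 500 bp, and a run was a member when its mean probe length was at least 47 and under 54 nucleotides (nt). Of 16784 such runs on the array, 9881 were members (58.9%), 5027 had a shorter mean length and 1876 a longer one. Probe length is a property of the array design, so no measured value entered the choice. The members held 103836 probes, of which 51883 were short (under 47 nt) and 26381 were long (at least 54 nt).

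The study concerns Luo-tong formula, a herbal medicine, as a treatment of diabetic retinopathy in rats, and compared DNA methylation between 5 groups. Peripheral blood DNA of 15 male Sprague Dawley rats, 20 weeks old, was measured on 15 two-colour tiling arrays, labelled as biological replicates. The rats had arrived at 8 weeks of age. DNA enriched by methylated DNA immunoprecipitation (MeDIP) carried the dye Cy5, and input DNA carried Cy3. Each of 5 groups had 3 rats. Control rats received citric buffer and distilled water. All other rats received 45 mg/kg streptozotocin, and those labelled DR model (diabetic retinopathy) then received distilled water with no insulin in the labels. The CaD rats received calcium dobesilate, a drug used in diabetic retinopathy, at 0.25 g/kg a day, and the LTF rats received Luo-tong formula, 2 g/kg a day, both with insulin at 1.5 IU a day. A further group received "another Chinse formula", as the labels spell it, here called the other formula, and the labels give neither its dose nor whether insulin was added. Treatment and insulin therefore cannot be told apart in the comparisons of CaD and LTF with the DR model. Whole blood is a mixture of cell types, and its make-up was not analysed here.

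In MeDIP an antibody against 5-methylcytosine pulls down DNA fragments, and the pulled-down DNA is compared with the untreated input DNA of the same animal. The yield rises with the number of methylated CpG sites on a fragment, so CpG-poor DNA gives a low ratio even where it is methylated. Array probes are often shortened where DNA is rich in G and C, so that all probes bind their targets at a like temperature; the base composition of these probes was not analysed here.

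The arrays fell into 6 scans, numbered here as the file headers group them. Control replicates 2 and 3 shared scan 5 with DR model replicate 1, scan 6 held DR model replicate 3 and CaD replicates 1 and 2, and scan 3 held CaD replicate 3 with the other formula. All LTF arrays were in scan 4, and DR model replicate 2 and control replicate 1 were scanned alone (scans 1 and 2). Array log2 ratios correlated at 0.805 to 0.953 in pairs. Their interquartile range, a measure of the width of the whole array's distribution, was 1.20 to 1.60. Within the DR model it was 1.60, 1.52 and 1.22 in replicates 1 to 3, and DR model replicate 3 stood apart from the other two in this and in the short minus long difference below.

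A typical member had 10 probes (median, range 3 to 279) over 1656 bp (median, range 349 to 50445 bp). Short means prevailed: 2422 members had a mean length from 47 to under 48 nt and 614 from 53 to under 54 nt. On chromosome 2, 721 of 1009 runs were members (71.5%), the highest share, and on chromosome 20 it was lowest, at 234 of 488. The bounds cut through a continuum. Just under 47 nt lay run14089 (chr6:134433206-134439545) and run14082 (chr6:134119540-134136720), and 2 members at exactly 47 nt on chromosome 1, run55 and run207, had mean log2 ratios of 0.03 and -0.08 against 0.35 and 0.29 in that pair. Just under 54 nt, run10730 on chromosome 3 and run17400 on the X chromosome averaged -0.58 and -0.69, and just outside, run5 and run28 on chromosome 1 averaged -2.02 and 0.83.

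Inside the members the log2 ratio of MeDIP over input fell steadily as probes became longer. Every value is relative to the median of its array, which was set to 0. Probes of 45 nt averaged 0.30 ± 0.04 (SD, n = 15 arrays), probes of 46 to 48 nt -0.15 ± 0.03 and probes of 49 to 51 nt -0.33 ± 0.05. The mean was -0.45 ± 0.06 at 52 to 54 nt, -0.58 ± 0.07 at 55 to 57 nt, -0.67 ± 0.08 at 58 to 59 nt and -0.84 ± 0.09 at 60 nt. The largest single drop lay between 45 nt and 46 to 48 nt. The order also held after the mean of each probe's own region was taken away. Probes of 45 nt then lay 0.36 ± 0.04 above the region's mean, and probes of 60 nt lay at -0.58 ± 0.06 relative to it.

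**Figure D1:**
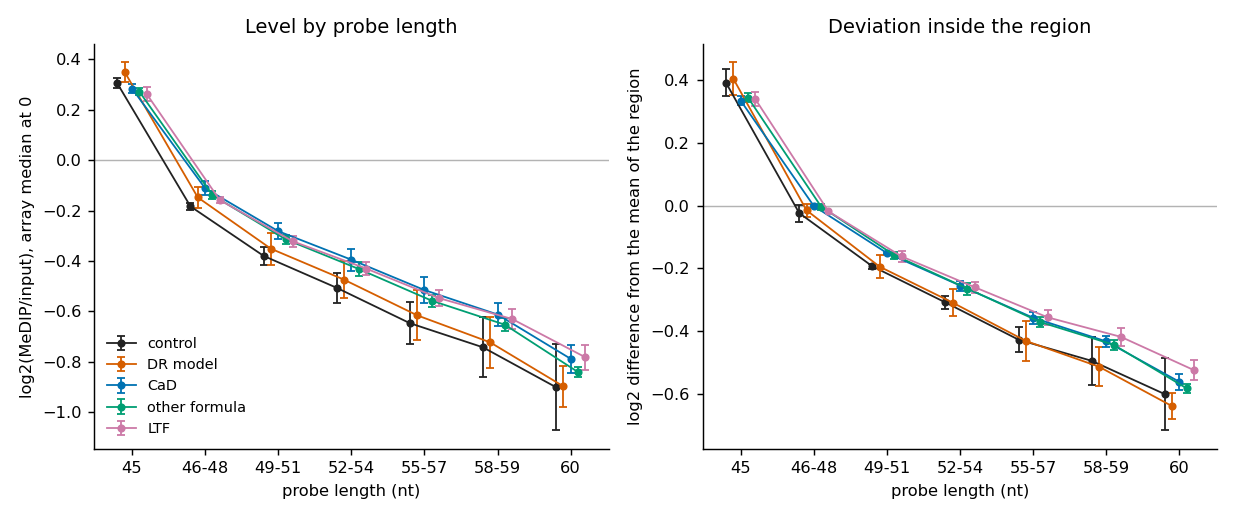
Mean log2(MeDIP/input) by probe length (nt) in the members, with each array's median at 0 (left), and the deviation from the mean of the probe's own region (right), for the 5 groups; points are group means and bars SDs over 3 arrays. All 5 lines fall from 45 nt to 60 nt, and at 45 nt the group means of the level lie between 0.26 and 0.35.

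The same order was present in the runs outside the bounds, at other levels. In runs with a mean under 47 nt, probes of 45 nt averaged 0.36 ± 0.04 and probes of 60 nt -0.84 ± 0.09 (n = 15 arrays). In runs with a mean of 54 nt or more these values were -0.18 ± 0.06 and -1.24 ± 0.14. Probes of 45 nt thus had a lower mean in runs made mostly of long probes, and probes of 60 nt had much the same mean in members and in runs of short probes.

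To follow the change inside single regions, the mean of the long probes was subtracted from the mean of the short probes of the same run. This short minus long difference needs at least 2 probes of each class, which 6310 members had, and 6281 of these were valued on every array. Of the rest, 99 members held no short and 470 no long probe. The median over members was 0.93 ± 0.10 (SD over 15 arrays, range 0.79 to 1.11), with a median level of 0.26 ± 0.03 for short and -0.78 ± 0.09 for long probes. The same value was 0.88 ± 0.09 in 413 runs with a mean of 54 nt or more, and 0.57 ± 0.11 in 46 runs with a mean under 47 nt, where long probes are few.

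By array, the median difference was 0.83, 1.00 and 1.11 in control, 1.08, 1.11 and 0.91 in the DR model, and 0.89, 0.83 and 0.90 in CaD. It was 0.91, 0.87 and 0.91 with the other formula and 0.79, 0.90 and 0.84 in LTF. DR model replicates 1 and 2 and control replicate 3 were highest, and the 3 control arrays spread almost as widely as all 15. CaD and LTF lay wholly below the DR model, and the other formula overlapped it, by small margins in each case. The lowest DR model array was at 0.906, and the highest was 0.901 in CaD, 0.904 in LTF and 0.914 with the other formula.

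The difference was 0.05 larger in the DR model than in control, well inside the spread (exact permutation test over 3 against 3 arrays, two-sided, p = 0.6). Relative to the DR model it was -0.16 in CaD, -0.13 with the other formula and -0.19 in LTF. The exact permutation p was 0.1, 0.3 and 0.1, and 0.1 is the smallest that 3 against 3 arrays allow. The mean of the 4 diabetic groups was -0.07 relative to control (exact p = 0.325, 12 against 3 arrays). Over the 25 comparisons of this kind (5 measures), the adjusted p of the 3 treatments was 0.25 or more by the same exact tests. Over all 5 groups together the F statistic gave an exact permutation p = 0.104, or 0.138 adjusted over 6 measures.

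Scan and array width moved with these values. Within scan 5 the difference was 1.06 in the 2 control arrays and 1.08 in the DR model array. Within scan 6 it was 0.91 in the DR model array and 0.86 in the 2 CaD arrays. LTF cannot be set against another group within a scan. Divided by the interquartile range of the array, the difference was 0.69 ± 0.04 over 15 arrays, and the separation of CaD from the DR model ended. CaD then lay at 0.68 to 0.73 and the DR model at 0.68 to 0.74, a change of -0.01 (exact permutation p = 0.8), and the other formula lay 0.01 above the DR model (exact permutation p = 0.9). LTF stayed below every DR model array at 0.65 to 0.67, a change of -0.06 (exact permutation p = 0.1). Members hold 103836 of the 172669 probes behind the interquartile range, so the short minus long difference itself adds to that width. The scaled values therefore cannot separate array width from a change in the difference. With quantile normalization the changes of the unscaled difference were -0.0258, -0.00406 and -0.0954 in CaD, the other formula and LTF. Without control replicate 1 the DR model's difference from control became -0.02, and without control replicate 3 that of the diabetic groups became 0.00.

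The lower mean differences under treatment went with lower short and higher long levels on average. Both levels are measured from the array's own median, and array width differed as well. The interquartile range averaged 1.45 in the DR model and 1.24, 1.25 and 1.28 in CaD, the other formula and LTF. The part of array width in the 2 levels was not tested. Short probes had a median level of 0.24, 0.27 and 0.28 in control, 0.32, 0.33 and 0.27 in the DR model and 0.27, 0.26 and 0.25 in CaD. With the other formula the level was 0.25, 0.23 and 0.25, and in LTF 0.23, 0.27 and 0.22. No array of a treated group reached the lowest DR model array, and the changes were -0.05, -0.06 and -0.07 (exact permutation p = 0.1 each, adjusted p = 0.25). Over the 5 groups the F statistic gave an exact permutation p = 0.026 (adjusted p = 0.0521). Long probes rose toward 0 by 0.12, 0.08 and 0.13 on average in CaD, the other formula and LTF, with overlapping arrays and exact permutation p from 0.2 to 0.4. Within scan 6 the short level was 0.27 in the DR model array and 0.26 in the 2 CaD arrays, and the long level was -0.73 and -0.69, smaller gaps than over all arrays.

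**Figure D2:**
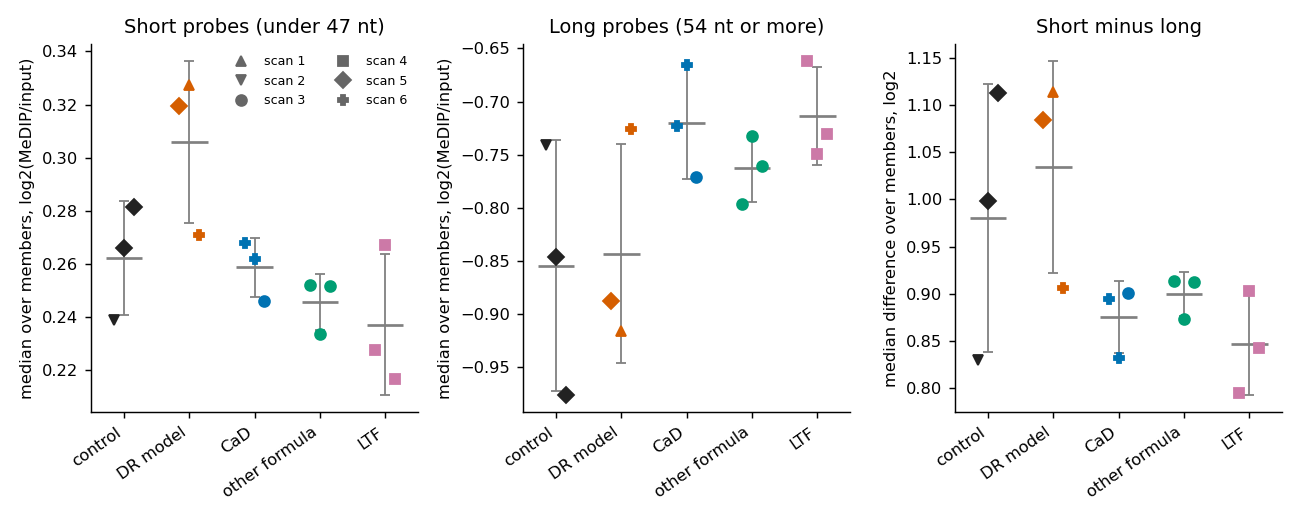
Median over the members of the short-probe level, the long-probe level and the short minus long difference (log2) on each array, by group, with symbols for the scan; grey lines are group means and bars SDs over 3 arrays, and the axes do not start at 0. CaD and LTF arrays all have a smaller difference than the 3 DR model arrays, whose lowest, in scan 6, is at 0.91.

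Each channel alone also rose from long to short probes, the MeDIP channel more. The median short minus long difference of log2 intensity was 2.16 ± 0.22 in MeDIP DNA and 1.21 ± 0.26 in input DNA (n = 15 arrays). In input DNA it was 0.72, 0.91 and 0.82 in control against 0.90 to 1.52 in the 12 diabetic arrays, of which 1 overlapped control. In MeDIP DNA it was 1.56, 1.92 and 1.96 in control and 2.04 to 2.45 in the diabetic arrays, with no overlap. The changes were 0.49 for input (exact permutation p = 0.0044) and 0.43 for MeDIP (exact permutation p = 0.0022, the smallest that 12 against 3 arrays allow). Adjusted over the 25 tests both p-values were 0.0549. Over the 5 groups the F statistic gave an exact permutation p of 0.00229 for input and 0.00348 for MeDIP, both 0.0105 when adjusted over 6 measures. Scan moved with these values too. In scan 5 the input value was 0.87 in control and 0.90 in the DR model, and the MeDIP value 1.94 and 2.04. The part of the scan was not tested further.

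Signal strength differed between the classes. The median background-subtracted MeDIP intensity was 102 for short and 22.1 for long probes, and for input 75.4 and 34.2 (means over 15 arrays). Short probes were well above background in the MeDIP channel at 94.1% of spots and long probes at 73.9%. When only probes above background on every array were used, the median difference was 0.63. A normexp background correction with an offset of 50 gave 0.41 and a loess fit within arrays 0.50, so the direction held in each but the size did not.

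Most regions followed the general order, and a minority ran the other way. Of 6281 members, 4644 had higher short than long probes on all 15 arrays (73.9%), 210 had lower short probes on all 15 (3.34%), and 1427 changed sign between arrays. Short probes lay above and long probes below the array median in 3628 members (57.8%). Both classes lay below it in 1601, both above it in 958, and short below with long above in 94. Long-probe means varied more between regions, with an SD of 0.75 over members against 0.45 for short-probe means. Long probes had weaker signal and were fewer. They averaged 3.74 a member against 5.87 short ones in the 4644, and 2.86 against 5.66 in the 210. The part of measurement noise in the larger SD was not tested. Members were sorted into the 210 and the 4644 by the sign of the short minus long difference. A contrast in level between these sets therefore follows in part from the sorting. Long probes had a median of 0.77 in the 210 against -1.002 in the 4644, and short probes 0.20 against 0.31. The mean lengths of the 210 and the 4644 were alike, with medians of 49.5 and 49.8 nt.

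The highest difference was in run8319, a region of 10 probes at chr2:14287363-14289091. Its 7 short probes averaged 1.17 and its 2 long ones -3.06, a difference of 4.22 ± 0.26 (SD, n = 15 arrays) that ranged from 3.91 to 4.80. The next were run3453 (chr10:76339369-76341066) at 4.06 ± 0.58 and run8398 (chr2:39260771-39262449) at 3.61 ± 0.47. The lowest was in run8808 at chr2:179168687-179170167, where 4 short probes averaged -0.22 and 2 long ones 1.86. Its difference of -2.08 ± 0.29 ranged from -2.79 to -1.74 and was lowest in DR model replicates 1 and 2. After it came run1098 (chr1:137322759-137324376) at -1.59 ± 0.30 and run10550 (chr3:74500241-74501653) at -1.57 ± 0.28. These extremes were chosen for their values and rest on 2 or 3 long probes each.

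**Figure D3:**
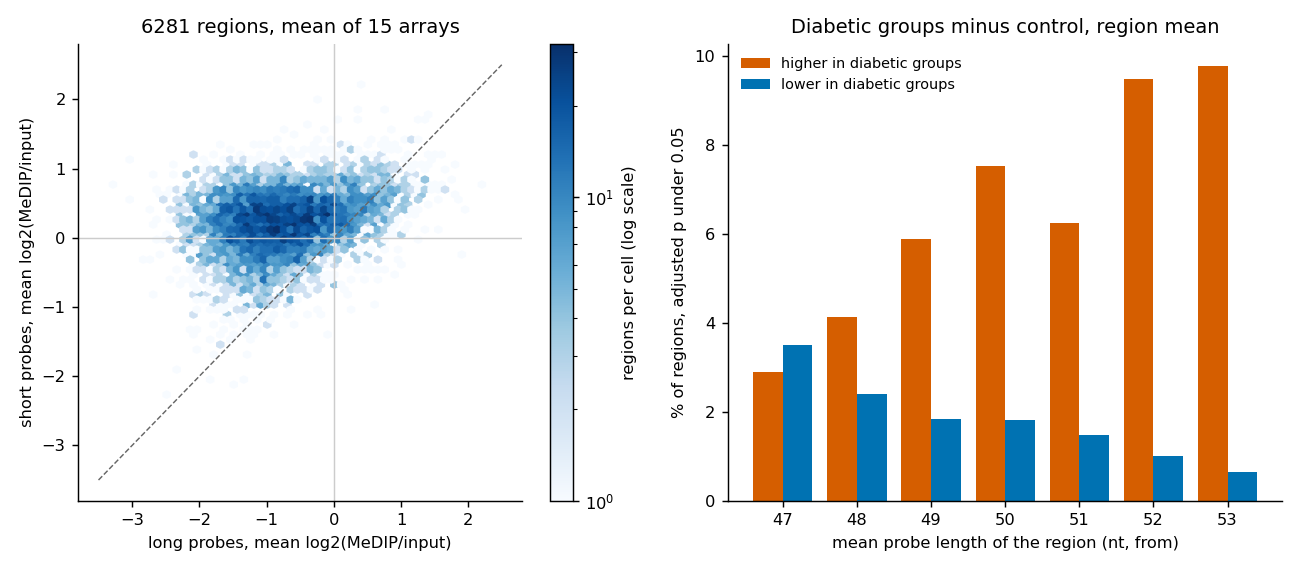
Left, mean log2(MeDIP/input) of the short probes against that of the long probes in 6281 members, mean of 15 arrays, with darker cells holding more regions (log scale) and the dashed line marking equality. Right, percentage of members with a higher or lower region mean in the 4 diabetic groups than in control (limma, adjusted p under 0.05) by mean probe length; 85 lower and 70 higher members at 47 nt turn to 4 lower and 60 higher at 53 nt.

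The median difference hardly depended on the mean probe length of the member. It was 0.88 in members from 47 nt, 0.97 from 49 nt and 0.87 from 53 nt, while both classes sank together: short probes from 0.29 to 0.04 and long probes from -0.66 to -0.91. A member with longer probes thus had lower ratios in each class and a similar gap between them.

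The order in which short and long probes followed each other along the region went with the size of the difference. In 2924 members short and long probes were interleaved, and their median difference was 0.78 ± 0.09 (SD over 15 arrays). In 1928 members one end was short and the other long, with 1.13 ± 0.13. A short block lay between long blocks in 574, with 1.0996 ± 0.114, and a long block between short blocks in 855, with 0.96 ± 0.11. Among probes with a neighbour on each side, those with no neighbour of the other class had the more extreme levels. Neighbours of a length between the classes counted as neither. Long probes with no short neighbour averaged -0.81 ± 0.09, those with 1 short neighbour -0.69 ± 0.08 and those between 2 short probes -0.52 ± 0.06. Short probes with no long neighbour averaged 0.35 ± 0.04, those with 1 long neighbour 0.07 ± 0.03 and those between 2 long probes -0.10 ± 0.05.

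Between direct neighbours the change was already large. From a short probe to the next long one, a median of about 160 bp away, the ratio dropped by 0.66 ± 0.08 (n = 15 arrays), and from a long to the next short probe it rose by 0.66 ± 0.07. Steps between neighbours of the same class averaged -0.02 to 0.02. Single steps were irregular even so, since the median absolute step was 0.60 between short neighbours and 0.81 from short to long. Averaged by region, short and long probes under 200 bp apart differed by 0.73 ± 0.08, those 200 to under 400 bp apart by 0.86 ± 0.09, and those 600 to under 800 bp apart by 1.02 ± 0.11. At 1600 bp and more, which only 2042 wider members reached, the difference was 0.87 ± 0.10.

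**Figure D4:**
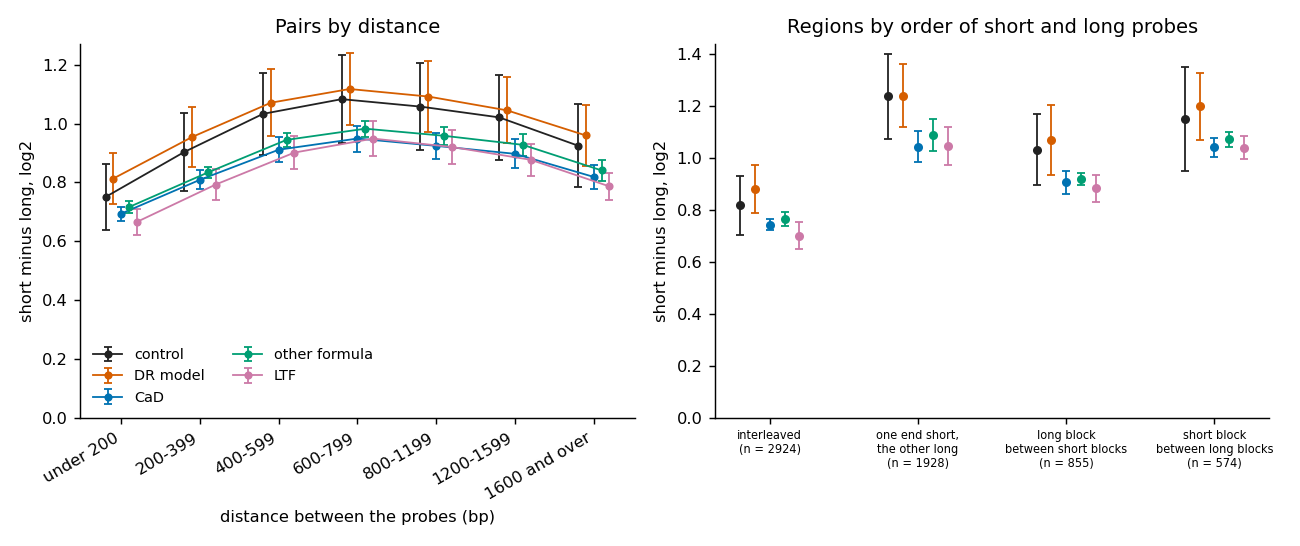
Short minus long difference (log2) of probe pairs in the same member by their distance in bp (left) and median difference of members by the order of short and long probes along them (right, n is the number of members), for the 5 groups; points are group means and bars SDs over 3 arrays. All groups rise from pairs under 200 bp apart to pairs 600 to under 800 bp apart, and interleaved members have the lowest values.

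The 4 members with the most probes of both classes show the pattern over much longer stretches. In run1175 (chr1:153431470-153476694, 240 probes) 88 short probes averaged 0.04 and 70 long ones -0.67, a difference of 0.71 ± 0.10. In run15686 (chr8:44468685-44514367, 232 probes) the difference was 0.57 ± 0.08, and in run11562 (chr4:58107762-58158206, 279 probes) it was 0.36 ± 0.06, with short probes at 0.34 and long ones at -0.01. In run14085 (chr6:134339829-134367425, 156 probes), most of its 55 short probes lay nearer the centre than most of its 57 long ones. Its difference was 0.78, 0.58 and 0.92 in control, 0.67, 0.77 and 0.57 in the DR model and 0.64, 0.56 and 0.58 in CaD. It was 0.73, 0.58 and 0.58 with the other formula and 0.50, 0.45 and 0.52 in LTF, where all 3 arrays were below every other array. In run1175, run15686 and run11562 the LTF arrays overlapped those of other groups.

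The groups were next compared region by region with limma, on the mean ratio of all probes of a run, with p-values adjusted by the Benjamini-Hochberg method over all 16782 runs that had a value on every array. Of the 9880 members among these, none passed an adjusted p of 0.05 between the DR model and control, between CaD and the DR model, or between the other formula and the DR model (0% of all runs in each). At an unadjusted limma p under 0.05 there were 1275, 1375 and 1428 members, where 12.7%, 15% and 15.1% of all runs had such a p. The 3 numbers became 1426, 874 and 701 when the scan was a random block and 1541, 170 and 165 when it was a fixed block. Between LTF and the DR model 82 members passed, 22 higher and 60 lower, where 0.9% of all runs did (0.238% higher, 0.661% lower), so their share of 0.83% was near the background. Between the mean of the diabetic groups and control 762 members passed, 545 higher and 217 lower, a share of 7.71% where 8.71% of all runs passed (6.35% higher, 2.36% lower). Among runs with a mean of 54 nt or more that share was 23.2%, and among runs under 47 nt it was 5.27%.

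Within the members the split of higher and lower calls between the diabetic groups and control moved with probe length, as it does across the whole array. From 47 nt 70 members were higher and 85 lower, from 50 nt 99 were higher and 24 lower, and from 53 nt 60 were higher and 4 lower. In the 545 higher members the long probes had risen by 0.39 on average and the short ones by 0.19, from the 370 members with both. In the 217 lower members the averages were -0.29 for long and -0.21 for short probes, over 113 members. Both sets were called on the mean of these same probes, so the averages follow in part from that choice. Over all 6281 members with both classes the median change was 0.07 for long and -0.003 for short probes. Scaling altered the split: 155 higher and 178 lower after quantile normalization, 1087 and 95 after normexp, 909 and 596 after loess, 546 and 437 in the deposited value table, 364 and 310 after centring by probe length, and 941 and 226 without both arrays scanned alone. The count was 147 without control replicate 3, 459 without CaD replicate 2, 504 and 481 without other formula replicate 2 or 3, and 1363 without DR model replicate 2. With the scan as a random block it was 138.

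Among the higher regions run1424 (chr1:163981540-163983288, 10 probes) had a mean of -1.21, -1.18 and -1.08 in control, against -0.84 to -0.53 in the 12 diabetic arrays. No diabetic array reached control, and the change was 0.50 ± 0.06 (SE, limma adjusted p = 0.00296). In run7414 (chr18:60769-61836) the mean rose by 0.60 from -1.82 ± 0.03 (SD, n = 3) in control, and in run12961 (chr5:135348474-135350069) by 0.42 from -0.45 ± 0.11, both with a limma adjusted p of 0.00296. Among the lower ones, run5246 (chr13:88595647-88597261) had 0.79, 0.75 and 0.82 in control and 0.12 to 0.58 in the diabetic arrays, a change of -0.43 ± 0.06 (SE, limma adjusted p = 0.00302). Run13711 (chr6:46551293-46553048) and run15772 (chr8:53850807-53852411) fell by 0.32 and 0.34. Run1424 changed by 0.07 with normexp (limma adjusted p = 0.0744) and by 0.10 in the deposited value table (limma adjusted p = 0.0842). Within scan 5, DR model replicate 1 alone stands against 2 controls. There the change was 0.33 in run1424, 0.22 in run7414, 0.38 in run12961, -0.34 in run13711 and -0.48 in run15772. Run13711 lost its call with short probes only (limma adjusted p = 0.2) or long probes only (limma adjusted p = 0.0802), and passed in 26 of 29 alternatives. All 6 regions separated every diabetic from every control array, by the rule that named them. What lies at these positions in the gene annotation was not analysed here.

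In LTF against the DR model, run612 (chr1:82039053-82039420, 3 probes) had -0.44, -0.32 and -0.38 in LTF and 0.06, 0.06 and 0.25 in the DR model. The other 9 arrays lay between 0.01 and 0.18, so LTF stood apart from all of them, and the change was -0.50 ± 0.07 (SE, limma adjusted p = 0.0152). That change in run612 rests on which spots were left out. It was -0.12 with outlier spots kept (limma adjusted p = 0.314), -0.03 without any marked probe (limma adjusted p = 0.92) and -0.02 in the deposited value table (limma adjusted p = 0.849). The call in run612 was also lost without DR model replicate 1 (limma adjusted p = 0.0608) or LTF replicate 1 (limma adjusted p = 0.073). Run3800 (chr10:99858561-99860134) and run12848 (chr5:114912279-114913756) fell by 0.48 and 0.44, with a limma adjusted p of 0.0245. In run4569 (chr12:20076362-20076997, 4 probes) LTF had -0.31, -0.38 and -0.37 against -1.29, -0.97 and -0.81 in the DR model, a rise of 0.67 (limma adjusted p = 0.0245). CaD and the other formula also averaged above the DR model in run4569, at -0.42 ± 0.09 and -0.48 ± 0.09 (SD, n = 3), where the limma adjusted p was 0.105 and 0.103. These 3 comparisons share the DR model arrays. Run12104 (chr4:152878080-152878642) and run7414 rose by 0.52 and 0.53 in LTF. The means of CaD and the other formula lay on the same side of the DR model as LTF in all 4 of the following regions. They were -0.33 and -0.38 against -0.78 in run12104, and -1.15 and -1.19 against -1.53 in run7414. In run3800 they were 0.39 and 0.33 against 0.67, and in run12848 -0.01 and -0.08 against 0.20. Over 26 alternatives for each, run4569 passed in 19, run12104 in 17 and run7414 in 12, and over 28 each, run3800 and run12848 passed in 20. Each of these calls was lost with the scan as a random block (limma adjusted p = 0.372, or 0.405 in run7414). Run4569, run12104 and run12848 were also lost without DR model replicate 1 or 2 or any LTF array. Run3800 was lost without DR model replicate 1 or any LTF array, and run7414 without DR model replicate 1 or 2 or LTF replicate 1 or 3. Run12104 was at 0.09 with probes above background (limma adjusted p = 0.608).

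The 82 calls between LTF and the DR model depended on single arrays. There were 0 without DR model replicate 1 or LTF replicate 1, 2 without DR model replicate 2 or LTF replicate 3, 4 without LTF replicate 2 and 696 without DR model replicate 3. Arrays outside the comparison enter through the estimate of the spread: 26, 7 and 37 remained without CaD replicates 1, 2 and 3, 48, 7 and 34 without those of the other formula, and 124 and 53 without control replicates 1 and 2. With the scan as a random block none passed, and after centring by probe length 19 were higher and 215 lower. Without DR model replicate 3, 795 members passed between CaD and the DR model and 643 between the other formula and the DR model.

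The short minus long difference itself was then tested between groups in each region, which removes any offset shared by the whole region. The fit covered 6740 runs, 6281 of them members. None passed between the DR model and control or between CaD and the DR model (0% of all runs), where 441 and 952 members had an unadjusted limma p under 0.05, against 6.96% and 15% of all runs. In a test on simulated data, 0.5 log2 was added to 200 runs for LTF against the DR model, and this fit recovered 0% of them. With 1 log2 added it recovered 76%. Low counts here therefore cannot show that changes of about 0.5 are absent. Between the other formula and the DR model 8 members passed, 2 larger and 6 smaller, where 0.163% of all runs did (0.0297% and 0.134%). Between LTF and the DR model 141 passed, 13 with a larger and 128 with a smaller difference, a share of 2.24% where 2.28% of all runs passed (0.208% and 2.08%). Between the diabetic groups and control 25 passed, 4 larger and 21 smaller, where 0.415% of all runs did (0.0742% and 0.341%). The median change over all 6281 members was -0.16 in LTF. Over all runs tested, most of which are members, it was also -0.16. Outside the members it was -0.21 in 413 runs with a mean of 54 nt or more and -0.09 in 46 runs with a mean under 47 nt. In LTF the short probes of a member changed by -0.08 and the long ones by 0.08 (medians against the DR model).

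A called change in this difference rests on few probes. In run868 (chr1:95689545-95691282, 5 short and 2 long probes) the difference was 1.21, 1.09 and 1.07 in LTF, 0.74, 0.83 and 0.88 with the other formula and 0.41, 0.34 and 0.89 in CaD. It was -0.06, -0.51 and -0.21 in the DR model and -0.17, 0.00 and 0.18 in control. All treated arrays lay above all untreated ones. The change against the DR model was 1.38 ± 0.17 in LTF (SE, limma adjusted p = 0.00175) and 1.08 ± 0.17 with the other formula (limma adjusted p = 0.0416), a call of run868 kept in 13 of 28 alternatives. For CaD it was 0.81 with an adjusted limma p of 0.104. Its 2 long probes include 1 of 56 nt at chr1:95690903-95690958. The input intensity of this probe was 352 to 579 in the 7 arrays of scans 3 and 4, which are LTF, the other formula and CaD replicate 3, and 81.4 to 240 in the other 8. Its MeDIP intensity was 252 to 477 in the first set and overlapped the second, at 286 to 777. CaD replicates 1 and 2 were among those 8 arrays, and their differences still lay above every untreated array. The part of this probe and of the scan in the change of run868 was not tested.

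In run13735 (chr6:52575144-52576692) the difference was 2.43, 3.47 and 3.77 in LTF and 1.20, 1.17 and 0.56 in the DR model, a change of 2.25 ± 0.28 (SE, limma adjusted p = 0.00175). One of its 2 long probes, at chr6:52576246-52576299, was marked as an outlier spot on all 3 LTF arrays and so left out there. With marked spots kept the change was 0.46 (limma adjusted p = 0.229). Among the smaller differences, run6375 (chr15:56871518-56873145) had 0.22, 0.37 and 0.14 in LTF against 1.31, 1.42 and 1.14 in the DR model, a change of -1.05 ± 0.14 (SE, limma adjusted p = 0.00418). Its 3 long probes averaged 0.13, 0.08 and 0.35 in LTF and -0.49, -0.82 and -0.59 in the DR model. Run6375 changed by -0.23 with normexp (limma adjusted p = 0.0725) and by -0.17 in the deposited value table (limma adjusted p = 0.155). Run6113 (chr15:27821118-27822274) changed by -1.11 (limma adjusted p = 0.00743), from 1.92 ± 0.23 to 0.81 ± 0.19 (SD, n = 3). In the deposited value table run6113 changed by -0.24 (limma adjusted p = 0.141), and it could not be tested without any marked probe. With the scan as a random block both calls were lost (limma adjusted p = 0.113 in run6375 and 0.189 in run6113). Run6375 passed in 26 of 29 alternatives and run6113 in 25 of 27. CaD and the other formula also averaged below the DR model in these regions, at 0.83 and 0.66 in run6375 and 1.16 and 1.07 in run6113. Control averaged 0.76 in run6375 and 1.51 in run6113.

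Between the diabetic groups and control, run14474 (chr7:16304417-16306099, 4 probes of each class) had 1.02, 0.94 and 0.91 in control and 0.01 to 0.79 in the diabetic arrays. The highest diabetic array was DR model replicate 2, and the change was -0.74 ± 0.12 (SE, limma adjusted p = 0.0392). Run8507 on chromosome 2 fell by 0.71, and its value after normexp was 0.03. The difference rose by 1.00 in run6360 (chr15:54027551-54029228) and by 0.75 in run11153 (chr3:154924805-154926476). These calls were marginal: run14474 passed in 13 of 29 alternatives, run8507 in 11 and run6360 in 19 of 28, and run11153 in 11 of 27.

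Marked spots and single arrays moved these counts as well. Short probes of members were marked at 0.143% to 6.88% of spots per array and long ones at 0.0834% to 4.28%, with the 3 highest values for short probes in LTF. With marked spots kept, 250 members passed between LTF and the DR model, 123 of them among the 141. With every probe marked on any array left out (13.2% of member probes), 115 of 5526 members passed, 88 of them among the 111 of the 141 that could still be tested. The 141 became 9 without DR model replicate 2 or LTF replicate 1, 20 without LTF replicate 2, 26 without DR model replicate 1, 64 without LTF replicate 3, 539 without DR model replicate 3 and 319 without control replicate 1. They became 89, 83 and 88 without CaD replicates 1, 2 and 3 and 78 without other formula replicate 2. With the scan as a random block 2 passed. Divided by the interquartile range, 47 were larger and 96 smaller.

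The smaller counts were no steadier. The 8 calls for the other formula became 235 without DR model replicate 3 and 0 to 3 without any of 12 other arrays, and the exceptions to that range were control replicate 1 and CaD replicate 3. The 25 calls for the diabetic groups became 232 without control replicate 1, 152 without DR model replicate 2 and 48 without DR model replicate 1. They became 13 without LTF replicate 3 and 0 to 3 without control replicate 2 or 3, any CaD or other formula array, or LTF replicate 1 or 2. After division by the interquartile range 37 were larger and 21 smaller, and after quantile normalization 46 and 23. Without DR model replicate 3, 374 members passed between CaD and the DR model, 28 larger and 346 smaller.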

How the data were processed

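MeDIP and input DNA of 15 blood samples were hybridised together, 1 array per sample. The deposited scanner output gives intensity values of both channels for each spot, read with Feature Extraction 11.0.1.1, per the file headers, with positions on the rn4 assembly (RGSC v3.4); processed signals were background-subtracted and dye-normalised by the authors. The authors' deposited log10 ratio of Cy5 over Cy3 matched the processed signals within 0.001 (log2) for 99.3% to 99.9% of probes. The authors also deposited a value table, treated here as log2 of MeDIP over input; its log base, its centring and which way its ratio runs were not stated in the labels. It correlated at 0.846 to 0.886 with the scanner ratios. Limma is named in the submitters' processing notes, with no role.

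Here log2(Cy5/Cy3) was taken from the processed signals of 172669 probes per array, spots marked as outliers on an array were left out there, and each array was centred on its median. Probe values were averaged per run and class. Groups were compared per run with limma 3.58.1 (R 4.3.3), all 5 groups in 1 fit, Benjamini-Hochberg adjustment over all runs and a threshold of 0.05. Medians per array were compared by exact permutation tests, two-sided. Normexp, tried as an alternative, used median signals in place of mean signals. Named regions were the 4 members with the most probes of both classes, the 3 highest and 3 lowest differences, and the 2 runs on each side of each length bound. For each comparison and direction they also were the 3 members by region mean, and the 2 by difference, with the smallest p among those whose arrays did not overlap. The members, lists and tests were chosen with earlier results of these data known. The scripts were tested on simulated data. Same-numbered replicates did not pair: of 21 correlations between them, from -0.40 to 0.34, 3 were over 0.1. The number of arrays limits the precision. Whether replicates were separate animals rests on the labels alone.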

Additional observations from a re-analysis of the deposited data

How the results depend on the processing

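The direction of the short minus long difference over all arrays (0.93) held under each alternative. It was 0.41 with normexp, 0.50 with loess, 0.43 in the deposited value table, 0.63 with probes above background, 1.07 with short under 46 and long at least 58 nt, 0.70 as a slope per 10 nt, 0.69 after division by the interquartile range (IQR), and 0.91 to 0.94 without single arrays. Some group differences in it turned in sign; those of CaD and LTF from the DR model did not. The DR model minus control was -0.0737 with loess and -0.0607 without both arrays scanned alone (-0.0209 to 0.12 without single arrays), and the other formula minus DR model 0.00618 after IQR division (-0.20 to -0.10). Diabetic groups minus control was 0.0102 with normexp, 0.0385 with quantile, 0.00485 in the deposited table, 0.0282 within scan 5 (where DR model replicate 1 alone stands for the diabetic groups, against 2 controls), 0.0315 after IQR division, -0.16 with loess (exact permutation p = 0.011), -0.15 without both arrays scanned alone (exact permutation p = 0.0256) and -0.14 to 4.67e-05 without single arrays. CaD ranged from -0.22 to -0.12 and LTF from -0.25 to -0.15 without single arrays; after IQR division they were -0.0126 and -0.0560, and with quantile -0.0258 and -0.0954.

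Counts by region mean moved as follows. DR model minus control (0) became 96 with loess, 1 in the deposited table, 46 without both arrays scanned alone, 22 with the scan as a fixed block, 22 within scan 5, 2 with short probes only and 0 to 17 without single arrays. CaD minus DR model (0) became 3 with normexp, 2 with quantile, 9 in the deposited table, 1 above background, 12 with short probes and 0 to 795 without single arrays. The other formula minus DR model (0) became 6, 1, 60, 71 and 83 in the same order, 1 with long probes and 0 to 643 without single arrays. LTF minus DR model (82) became 147 with outlier spots kept, 223 with normexp, 365 above background, 234 centred by length, 9 without any marked probe, 9 without both arrays scanned alone, 0 with the scan as a random block, 367 with short and 12 with long probes, and 0 to 696 without single arrays. Diabetic groups minus control (762) became 1182 with normexp, 1505 with loess, 333 with quantile, 1167 without both arrays scanned alone, 138 with the scan as a random block, 22 within scan 5 (again that 1 array, whose spread is taken from the other arrays, against 2 controls), 327 with short and 103 with long probes, and 147 to 1363 without single arrays.

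Counts by the short minus long difference moved as follows. DR model minus control (0) became 5 without both arrays scanned alone and 0 to 1 without single arrays. CaD minus DR model (0) became 67 with normexp, 95 in the deposited table, 35 above background and 0 to 374 without single arrays. The other formula minus DR model (8) became 16 with outlier spots kept, 102 with normexp, 3 with loess, 247 in the deposited table, 67 above background, 15 after IQR division, 1 with at least 3 probes a class and 0 to 235 without single arrays. It was 0 as a slope, without any marked probe, without both arrays scanned alone and with the scan as a random or fixed block. LTF minus DR model (141) became 250 with outlier spots kept, 555 with normexp, 71 with loess, 287 above background, 68 with at least 3 probes a class, 59 without both arrays scanned alone, 2 with the scan as a random block and 9 to 539 without single arrays; with quantile it was 161 (32 larger, 129 smaller). Diabetic groups minus control (25) became 63 with outlier spots kept, 610 with loess, 69 with quantile, 320 in the deposited table (164 larger, 156 smaller), 89 above background, 9 with the stricter lengths, 2 with at least 3 probes a class, 6 as a slope, 69 without any marked probe, 378 without both arrays scanned alone, 0 with the scan as a random block, 0 within scan 5 (that 1 array again), 58 after IQR division and 0 to 232 without single arrays.

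With the replicate block, which the data do not bear out as a pairing, LTF minus DR model gave 17 members by region mean and 63 by the difference, the other formula 0 and the diabetic groups 509 and 1. Of the named regions, run5911 reversed for DR model minus control above background (-0.0510), run9421 likewise in its difference (-0.0912), and run8507 with normexp (0.0277). The cause of these moves was not tested. The scan as a fixed block could not be fitted for LTF or the diabetic groups. The alternatives without both arrays scanned alone, with short or long probes only, with IQR division and without any marked probe were chosen after seeing the data. Long probes were above background in the MeDIP channel at 73.9% of spots.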
